A study of Mus musculus with 2 samples.

Results

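Of the genes of bone morphogenetic protein (BMP) signaling, 10 were followed in mouse lung organoids: the ligands Bmp2, Bmp4 and Bmp5, the related family member Gdf10, the secreted antagonists Grem1, Nog and Fst, and the target genes Id1, Id2 and Id3. They were found by symbol in the gene list of both libraries, and all 10 were present among the 27998 genes. The organoids were grown from sorted alveolar type 2 (AT2) cells of C57BL/6 mice that carried Sftpc-CreERT2 and R26R-tdTomato and had received tamoxifen, so that the surfactant protein C promoter decided which cells carried the Tomato label. The AT2 cells were mixed with lung stromal cells that had been depleted of CD31+, EpCAM+ and CD45+ cells and cultured beforehand, and the mixture was kept in Matrigel for 2 weeks per the labels, whereas the study's text gives a longer culture. One culture received PBS (control) and the other interleukin-1β (IL-1β), an inflammatory cytokine. Everything else in the labels was shared by both libraries, and the labels give neither the age of the mice nor the IL-1β dose, for which the study's text is not uniform. With 1 library per condition there was no replicate and no test: the intervals below are 95% intervals that cover counting error only, and what IL-1β did cannot be separated from variation from one culture to another.

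BMP ligands are secreted proteins that bring type I and type II receptor kinases together. The receptors phosphorylate SMAD1, SMAD5 and SMAD9, which enter the nucleus with SMAD4 and raise the transcription of the Id genes, whose products bind E proteins and keep them from DNA. Antagonists such as gremlin 1 (Grem1), noggin (Nog) and follistatin (Fst, best known for binding activins) bind ligands outside the cell. In the alveolus, BMP signaling is known as a brake on AT2 cell proliferation, and its ligands and antagonists are known to come from both the epithelium and the neighboring mesenchyme.

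The control library held 2101 barcodes with 33965848 UMIs (unique molecular identifiers, each standing for 1 captured transcript) and the IL-1β library 3066 barcodes with 41220175 UMIs. The median barcode had 14613 UMIs with PBS and 11496.5 with IL-1β, and 11 barcode sequences occurred in both. Clustering without the genes described here gave 777 control and 452 IL-1β stromal cells, 902 and 1424 AT2-lineage cells, 267 and 426 AT1-like cells (alveolar type 1, the gas exchange cell) and 25 and 128 cells like damage-associated transient progenitors (DATPs, a Krt8+ state between AT2 and AT1 cells). A further 7 control and 589 IL-1β epithelial cells took no name, most of them from a cluster led by Slc26a4, Areg and Cd14. All 8 stromal markers were higher in stromal cells than in other cells of the same library, and all 10 AT2 and all 10 AT1 markers were higher in their classes. Of the 7 DATP markers, 6 were higher in control and 7 in IL-1β DATP-like cells. All 13 epithelial clusters and 10 of 12 stromal clusters drew at least 95% of their cells from 1 library, so the classes hold different clusters in each library. AT1-like cells, for example, came from a cluster led by Pmp22 and Spock2 in the control library and from one led by AW112010 and Serpinb9 in the IL-1β library. The 10 leading genes of the IL-1β cluster held 2 AT1 markers (Akap5 and Hopx) and 2 DATP markers (AW112010 and Cldn4), and DATP was its next best name.

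RNA released from broken cells is captured with every cell, and its size was read from genes of the other compartment. The 8 stromal markers gave a median of 2.52% of their stromal level in control AT2-lineage cells (range 1.40% to 7.66%) and 2.37% in IL-1β AT2-lineage cells (range 1.56% to 3.91%). The 10 AT2 markers gave a median of 2.85% of their AT2-lineage level in control stromal cells and 4.74% in IL-1β stromal cells. A level within these ranges of its source cannot be told apart from free RNA.

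The promoter windows of the genes whose stromal levels moved are shown first, to set the sequence beside the expression values. RefSeq's table on GRCm38.p6 matched 6 of the 10 genes, and the 3 windows without a base in a GENCODE exon are printed, each 250 bases 5′ to 3′ up to the base before the transcription start. They are Bmp4 (chr14:46390670-46390919, minus strand), Gdf10 (chr14:33923337-33923586, plus strand) and Grem1 (chr2:113758649-113758898, minus strand). Capitals mark matches, on either strand, to 3 SMAD-related motifs: the GC palindrome (GGCGCC), the SMAD-binding element (here searched as GTCTG) and a wider GC motif (spelled GGCGNC), which includes every match to the GC palindrome.
Bmp4: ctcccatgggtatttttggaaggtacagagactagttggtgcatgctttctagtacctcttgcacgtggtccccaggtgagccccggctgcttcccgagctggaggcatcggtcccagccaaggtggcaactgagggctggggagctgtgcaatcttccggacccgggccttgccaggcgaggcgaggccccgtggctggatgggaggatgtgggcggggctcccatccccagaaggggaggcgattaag
Gdf10: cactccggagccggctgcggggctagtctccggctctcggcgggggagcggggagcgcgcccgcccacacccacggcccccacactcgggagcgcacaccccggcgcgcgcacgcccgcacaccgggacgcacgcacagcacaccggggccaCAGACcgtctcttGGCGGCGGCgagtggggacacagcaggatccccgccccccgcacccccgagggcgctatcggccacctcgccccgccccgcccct
Grem1: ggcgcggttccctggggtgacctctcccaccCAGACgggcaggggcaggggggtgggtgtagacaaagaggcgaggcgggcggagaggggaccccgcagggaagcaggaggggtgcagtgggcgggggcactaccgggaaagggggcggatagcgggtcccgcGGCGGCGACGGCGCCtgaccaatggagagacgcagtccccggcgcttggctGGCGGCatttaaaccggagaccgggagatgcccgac
The Bmp4 window held no match to any of the 3 motifs. That of Gdf10 held 1 match to the SMAD-binding element and 2 to the wider GC motif, and that of Grem1 held 1 GC palindrome, 1 SMAD-binding element and 4 matches to the wider GC motif. Across all 32851 windows of the table, 9.586% held the GC palindrome, 42.19% the SMAD-binding element and 30.71% the wider GC motif. None of the 6 windows held the kappa-B consensus bound by NF-κB, which occurred in 7.251% of all windows. For Id2 and Id3 the table's windows overlapped annotated exons and are not printed: the Id2 window held 1 GC palindrome and 2 matches to the wider GC motif, and the Id3 window 2 SMAD-binding elements and 1 match to the wider GC motif. These are descriptions of letters in short windows, not of binding.

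In stromal cells, Bmp4, Gdf10, Id1 and Id3 were lower and Bmp2 and Grem1 higher in the IL-1β library. A gene was called where the class held at least 50 UMIs over both libraries, the IL-1β over control ratio of its level (CPM, UMIs of the gene scaled to a class total of 1000000) was at least 2 or at most 0.5 and the interval of the ratio excluded 1. By this rule 6 of the 9 genes tested were called in stromal cells, where 15.9% of all 11255 genes tested were called in either direction. The direction was lower for 4 of them, against 11.7% of all genes, and higher for 2, against 4.15%. The median log2 ratio of all genes in stromal cells was -0.335, so stromal ratios are to be read against a shift of that size. Nog, with 9 control and 16 IL-1β UMIs, was too sparse for the rule.

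**Figure D1:**
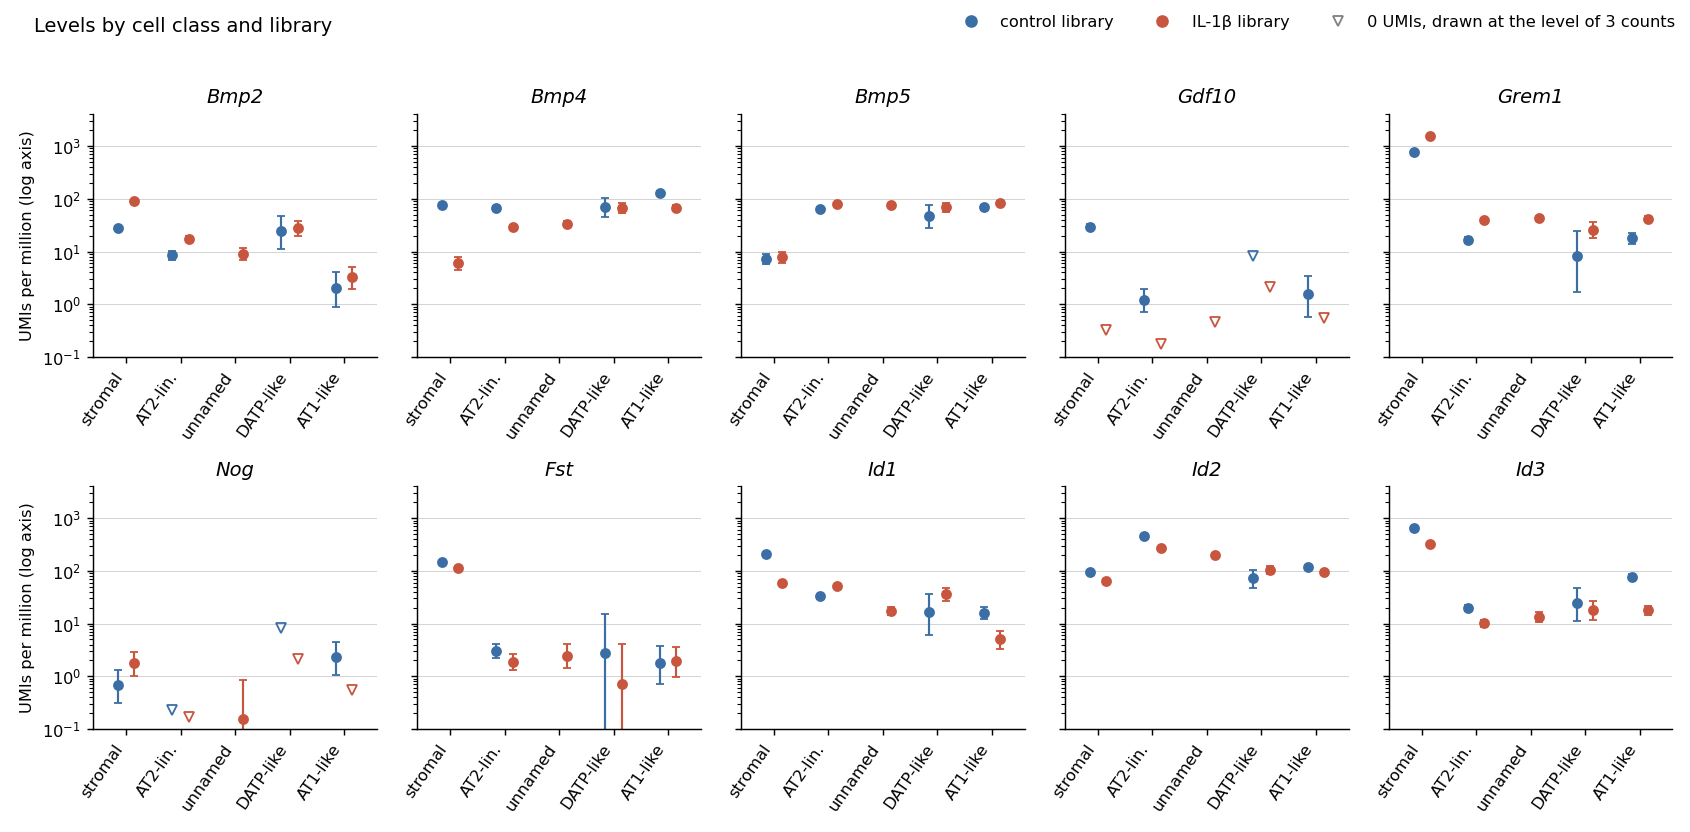
Level of each gene in CPM (log axis) in 5 cell classes of the control (blue) and IL-1β (red) libraries, with 95% Poisson intervals as bars and open triangles where no UMI was counted. The 7 unnamed epithelial cells of the control library are not drawn. Stromal Bmp4 falls from 77.1 to 5.95 CPM, while Bmp5 stays higher in the epithelial classes than in stromal cells in both libraries.

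Bmp4 (ENSMUSG00000021835, chr14:46383520-46390669, minus strand), a ligand of the BMP2/4 group, was present in stroma and epithelium of control organoids. Its level there was 131 CPM in AT1-like cells (interval 119.98 to 143), 77.1 in stromal cells (72.4 to 81.9), 69.2 in DATP-like cells (44.8 to 102) and 67.5 in AT2-lineage cells (63.1 to 72.1). AT1-like cells stood above the other 3 classes, whereas the intervals of DATP-like cells overlapped those of stromal and AT2-lineage cells. In the IL-1β library the order was different. DATP-like (67.9 CPM, 54.9 to 83.2) and AT1-like cells (67.6 CPM, 60.9 to 74.8) overlapped at the top, followed by unnamed epithelial (33.8 CPM) and AT2-lineage cells (28.6 CPM), and stromal cells came last at 5.95 CPM (4.47 to 7.77). The stromal ratio was 0.0773 (0.0576 to 0.102), from 1014 control and 54 IL-1β UMIs. In AT2-lineage cells Bmp4 also fell, to a ratio of 0.424 (0.379 to 0.473), and in AT1-like cells the ratio was 0.516 (0.450 to 0.590), just short of the rule. In DATP-like cells it was 0.983 (0.627 to 1.59), with only 25 control cells behind it. The change in Bmp4 thus differed in size between classes, and stromal cells gave 38.9% of all Bmp4 UMIs of the control library but 4.29% of those of the IL-1β library. Such shares also depend on how many cells of each class were captured. The remaining stromal level was 20.8% of that in IL-1β AT2-lineage cells, where 1 AT2 marker, Etv5, gave 21.6% in these stromal cells and the other 9 gave 3.62% to 12.7%.

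Stromal Bmp4 was low in every IL-1β cluster. Among control clusters of at least 10 cells, Bmp4 ranged from 0 UMIs in 28 contractile cells led by Tagln and Acta2 to 143 CPM (124 to 164) in 67 cells led by Nkd2 and Col11a1. Among the IL-1β clusters that drew nearly all cells from that library, it ranged from 3.82 CPM in 192 cells led by 9530059O14Rik, Vnn3 and Mmp3 to 16.5 CPM (10.7 to 24.3) in 74 cells led by Mmp10 and Il11. The AT2-lineage level was 28.6 CPM, and the part of free RNA within single clusters was not tested. Apart from a mixed cluster led by AT2 genes, which was set aside, only 1 stromal cluster held at least 10 cells of each library, a contractile one led by Ctgf and Wisp2 with 86 control and 16 IL-1β cells. There Bmp4 had 202 UMIs in control cells and 0 in IL-1β cells. The upper limit of the ratio was 0.0737, and a count of 0 taken as 3 counts gave a level 16.8-fold lower. After thinning every cell to 4600 UMIs, 19.8% of control stromal cells (17.1% to 22.8%) and 1.99% of IL-1β stromal cells (0.914% to 3.75%) had a Bmp4 UMI, and without thinning 40.9% and 6.86%.

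Bmp2 (ENSMUSG00000027358, chr2:133552159-133562885, plus strand), the closest relative of Bmp4 among these ligands, went the other way over all stromal cells and was concentrated in few cells. In stromal cells it gave 27.8 CPM with PBS (25.04 to 30.8) and 89.4 with IL-1β (83.4 to 95.8), and the ratio was 3.22 (2.84 to 3.65). In the control library 224 of 366 stromal UMIs, 61.2%, came from the 67 cells led by Nkd2 and Col11a1, at 162 CPM (142 to 185). In the IL-1β library 601 of 811, 74.1%, came from the 74 cells led by Mmp10 and Il11, at 396 CPM (365 to 429). Outside these 2 clusters Bmp2 ranged from 0 to 17.8 CPM in control clusters and from 15.4 to 39.9 CPM in IL-1β clusters. Within the contractile cluster of both libraries Bmp2 was not higher, at 17.8 and 15.4 CPM. The ratio there was 0.864 (0.348 to 1.89), with too few UMIs for the rule (37 and 8). The stromal call rested on the cluster led by Mmp10 and Il11: without it the log2 ratio was -0.00031, without the control cluster 2.89, and without both 1.21. In AT2-lineage cells the Bmp2 ratio of 2.06 (1.66 to 2.58) met the rule in 12 of 21 alternative settings. Several of those settings left this class unchanged. Bmp2 had 8.56 CPM there with PBS (7.04 to 10.3) and 17.7 with IL-1β (15.7 to 19.7). These levels were 30.8% and 19.7% of the stromal ones, above the stromal markers. DATP-like cells gave 24.9 and 28.2 CPM and AT1-like cells 2.07 and 3.25 CPM, with too few UMIs for the rule.

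**Figure D2:**
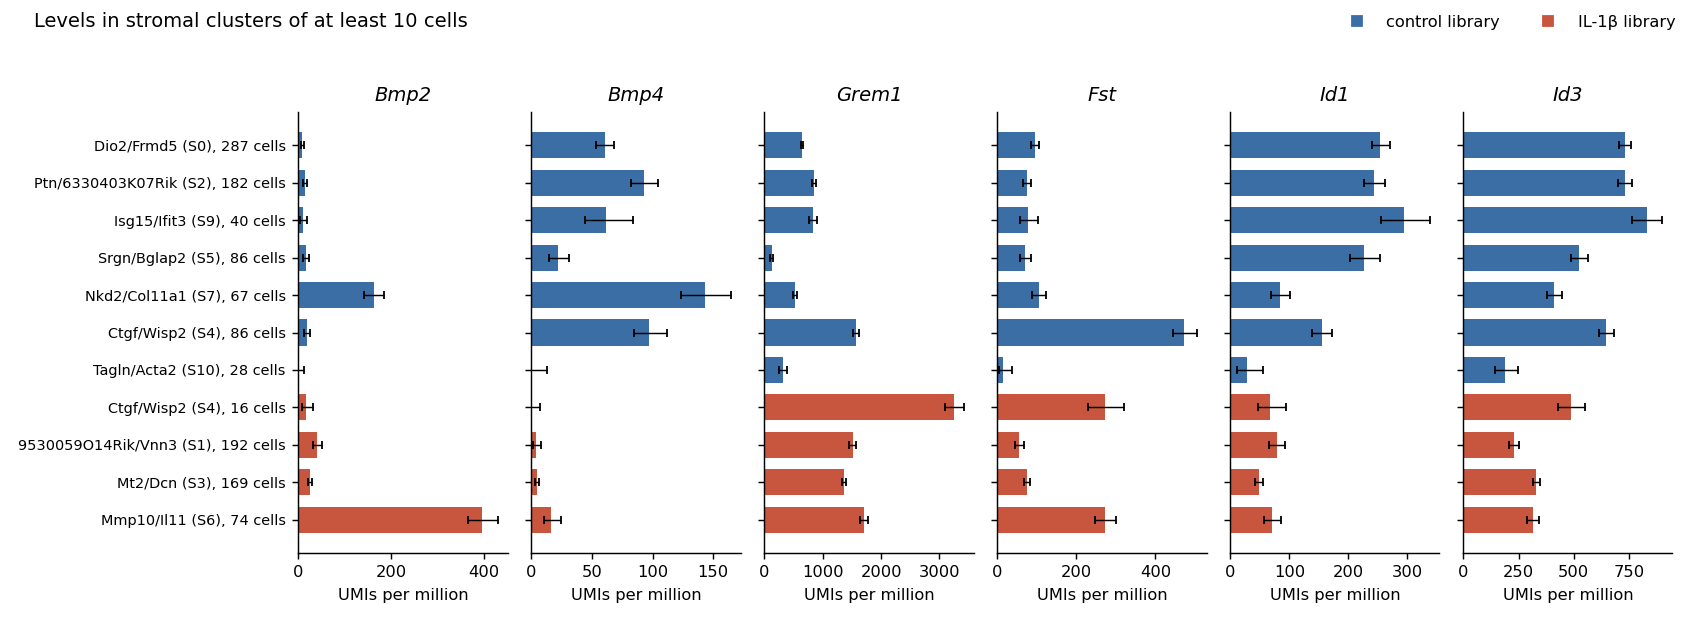
Level in CPM (linear axes from 0) of 6 genes in stromal clusters of at least 10 cells, named by their first 2 leading genes, with control cells in blue, IL-1β cells in red and 95% Poisson intervals as bars. Bmp2 stands out in 1 cluster of each library, at 162 and 396 CPM, while Bmp4 is at or below 16.5 CPM in every IL-1β cluster.

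Bmp5 (ENSMUSG00000032179, chr9:75775364-75900310, plus strand), a ligand of the BMP5/6/7 group, was epithelial in both libraries. In the control library it had 68.4 CPM in AT1-like (60.4 to 77.2), 63.1 in AT2-lineage (58.9 to 67.5) and 47.0 in DATP-like cells (27.4 to 75.3), whose intervals all overlapped, and 7.22 in stromal cells (5.84 to 8.83). With IL-1β it had 84.4 CPM in AT1-like, 78.0 in AT2-lineage, 77.8 in unnamed epithelial and 68.7 in DATP-like cells, again with overlapping intervals, and 7.72 in stromal cells. No class met the rule. The ratio was 1.24 in AT2-lineage cells (1.13 to 1.35), 1.23 in AT1-like cells (1.06 to 1.44) and 1.07 in stromal cells (0.774 to 1.47). The stromal levels were 11.4% and 9.89% of the AT2-lineage ones, within the range of the AT2 markers in stromal cells (2.05% to 28.9% and 3.62% to 21.6%), although above 8 of the 10 markers in each library.

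Gdf10 (ENSMUSG00000021943, chr14:33923587-33937983, plus strand), also called BMP3B, was a gene of control stroma. It had 391 UMIs in control stromal cells, 29.7 CPM (26.8 to 32.8), and 0 in the IL-1β library as a whole, where 0 of 3058 cells held one. In stromal cells the upper limit of the ratio was 0.0138, and a count of 0 taken as 3 counts gave a level 89.8-fold lower. Control cells led by Ptn and 6330403K07Rik had 47.2 CPM (39.8 to 55.5) and those led by Srgn and Bglap2 had 41.9 (31.8 to 54.1), overlapping values at the top of the order. The cells led by Nkd2 and Col11a1, the highest for Bmp2 and Bmp4 in that library, gave 5.80 CPM (2.50 to 11.4). Control AT2-lineage cells had 16 UMIs, 4.11% of the stromal level and within the range of the stromal markers.

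Grem1 (ENSMUSG00000074934, chr2:113746164-113758646, minus strand) was the antagonist of the stroma in both libraries. Stromal cells gave 96.1% of its UMIs in control and 89.5% in IL-1β organoids. The stromal level was 773 CPM (758 to 788) without and 1559.7 (1534.1 to 1585.6) with IL-1β, which is a ratio of 2.02 (1.97 to 2.07). This lies barely past the threshold, and 6 of 21 alternative settings gave a ratio under 2, with log2 ratios from 0.881 to 1.35 over all of them. Control clusters differed widely, from 121 CPM (104 to 141) in cells led by Srgn and Bglap2 to 1572 (1518 to 1627) in contractile cells led by Ctgf and Wisp2. The IL-1β clusters lay between 1362 and 1710.4 CPM, apart from the contractile one at 3254.5 (3101 to 3413), and in that cluster the ratio was 2.07 (1.95 to 2.20). After thinning, 67.6% of control (64.2% to 70.9%) and 94.7% of IL-1β stromal cells (92.2% to 96.6%) held a Grem1 UMI, and 79.9% and 98.5% without thinning. In epithelium Grem1 was also called higher, with a ratio of 2.43 in AT2-lineage cells (2.08 to 2.84) and 2.26 in AT1-like cells (1.72 to 2.99). Its AT2-lineage level was 2.14% and 2.58% of the stromal one, within the range of the stromal markers, so these calls are not read as epithelial expression.

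Fst (ENSMUSG00000021765, chr13:114452290-114458951, minus strand) was likewise stromal and, in the control library, highest in 1 of the 2 contractile clusters. It had 146 CPM in control (139.53 to 153) and 115 in IL-1β stromal cells (108 to 122), and the ratio of 0.786 (0.728 to 0.848) did not meet the rule. The contractile cells led by Ctgf and Wisp2 had 474 CPM in the control library (445 to 504), the other contractile cells, led by Tagln and Acta2, had the least at 14.0 CPM (3.81 to 35.8), and the remaining control clusters had 69.3 to 105 CPM. In the IL-1β library the cells led by Mmp10 and Il11 (272 CPM, 247 to 299.9) and the contractile cells (271 CPM, 228 to 320.04) could not be ordered, and both stood above the remaining 2 clusters at 55.2 and 74.1 CPM. AT2-lineage cells gave 3.06 and 1.90 CPM, 2.09% and 1.65% of the stromal level. Nog (ENSMUSG00000048616, chr11:89300638-89302332, minus strand) had 18 UMIs in each library. In the control they split evenly between stromal and AT1-like cells, at 0.684 CPM (0.313 to 1.30) and 2.32 CPM (1.06 to 4.41), and in the IL-1β library 16 were in stromal cells, 10 of them in the cells led by Mmp10 and Il11. In AT2-lineage cells Nog was not detected, with 0 of 902 control and 0 of 1424 IL-1β cells, with upper limits of 0.282 and 0.212 CPM.

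**Figure D3:**
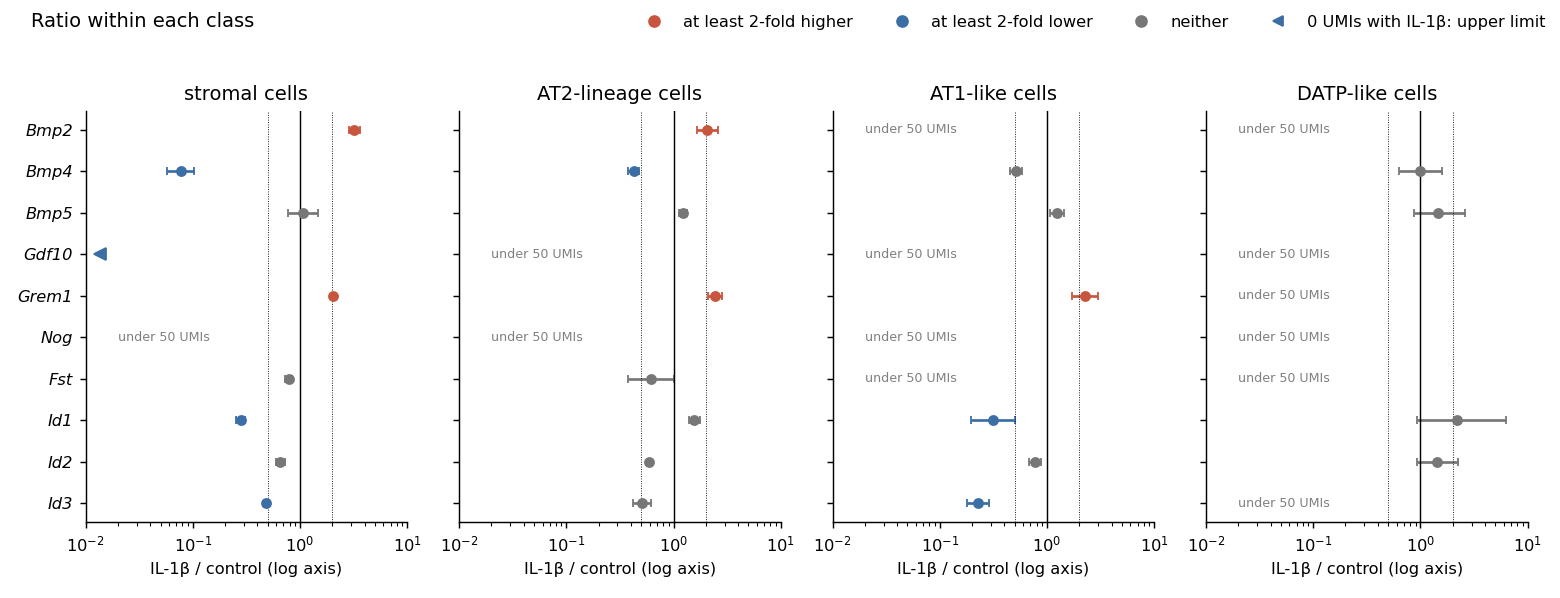
Ratio of IL-1β over control level (log axis) for each gene in 4 classes, with 95% intervals as bars and dotted lines at 0.5 and 2; red and blue points met the rule and gray points did not. Id1 lies at 0.279 in stromal and at 1.55 in AT2-lineage cells, and Id3 lies below 1 in stromal, AT2-lineage and AT1-like cells.

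The 3 Id genes were distributed differently between stroma and epithelium. Id1 (ENSMUSG00000042745, chr2:152736251-152737410, plus strand) and Id3 (ENSMUSG00000007872, chr4:136143497-136145755, plus strand) were highest in control stromal cells, at 212 CPM (205 to 220.5) and 657 CPM (643 to 671). Id2 (ENSMUSG00000020644, chr12:25093799-25097140, minus strand) was highest in control AT2-lineage cells, at 455 CPM (443 to 466), and overlapped there with control cycling epithelial cells (444 CPM, 413 to 477). AT2-lineage cells gave 69.5% of the Id2 UMIs of the control library, and stromal cells 81.9% of those of Id1.

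In stromal cells Id1 and Id3 fell. Id1 went from 212 to 59.2 CPM (54.3 to 64.4), a ratio of 0.279 (0.254 to 0.306), and Id3 from 657 to 317 CPM (305 to 328), a ratio of 0.482 (0.462 to 0.503). For Id3 the call was lost when the stromal shift of all genes was taken out, at a log2 ratio of -0.717. Id2 had 96.6 and 63.4 CPM, a ratio of 0.656 (0.594 to 0.725) that did not meet the rule. These levels were 21.2% and 23.4% of the AT2-lineage ones, where the AT2 markers in stromal cells gave 2.05% to 28.9% and 3.62% to 21.6%. The control level was thus within their range, but only Cebpa (28.9%) gave more and the next marker, Etv5, gave 16.5%. The IL-1β level was just above the range of the markers, and the part of free RNA was not tested. Of the control clusters, the cells led by Isg15 and Ifit3 had the highest Id1 (294 CPM, 255 to 338) and Id3 (831 CPM, 764 to 902), overlapping for Id1 with the cells led by Dio2 and Frmd5 (255 CPM, 240 to 270). The control clusters with the lowest Id1 were the cells led by Tagln and Acta2 (28.0 CPM, 12.1 to 55.1) and those led by Nkd2 and Col11a1 (84.1 CPM, 69.5 to 101). The latter overlapped with 3 of the 4 IL-1β clusters, at 67.4 to 78.7 CPM, and lay above the fourth, led by Mt2 and Dcn (48.3 CPM, 42.5 to 54.7). It was the control cluster with the highest Bmp4 and Bmp2 CPM. Within the contractile cluster of both libraries the ratio was 0.434 for Id1 (0.297 to 0.617) and 0.751 for Id3 (0.654 to 0.860). With cells thinned, 52.8% of control (49.2% to 56.3%) and 21.7% of IL-1β stromal cells (18.0% to 25.8%) held an Id1 UMI, and without thinning 79.0% and 45.1%.

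In AT2-lineage cells 3 of 8 genes tested were called, Bmp4 lower and Bmp2 and Grem1 higher, where 11.0% of 11045 genes were called in either direction, 7.15% higher and 3.88% lower. No Id gene was among the 3. Under the alternative settings Bmp4 and Grem1 kept their calls in 21 of 21 and Bmp2 in 12. Settings that changed only stromal cells or the UMI minimum could not move these 3 calls. Grem1 was at 2.14% and 2.58% of its stromal level, within the range of the stromal markers. Id1 had 32.8 CPM with PBS (29.7 to 36.0) and 50.9 with IL-1β (47.6 to 54.4), for a ratio of 1.55 (1.38 to 1.75), in the opposite direction to stromal cells. Across the named clusters of this class Id1 had 32.2 and 38.5 CPM with PBS and 39.6, 47.1 and 67.3 CPM with IL-1β. The intervals of the nearest clusters overlapped, and how many other genes separate in this way was not counted. The unnamed epithelial cells of the IL-1β library, left out of this class, lay below both control clusters at 17.4 CPM. With unnamed cells counted as AT2-lineage, the log2 ratio of Id1 went from 0.636 to 0.364. Id2 had 455 and 271 CPM, a ratio of 0.595 (0.573 to 0.619), and its clusters lay at 375 and 468 CPM with PBS and at 223 to 301 CPM with IL-1β. Id3 had 19.9 and 10.2 CPM, which is 3.04% and 3.23% of the stromal level and within the range of the stromal markers. The IL-1β cluster led by Slc26a4 and Areg makes up most of the unnamed epithelial cells, which had 17.4 CPM of Id1 (14.3 to 20.9) and 196 of Id2 (186 to 207), both below the AT2-lineage cells of that library.

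In AT1-like cells 3 of 6 genes tested were called, against 7.86% of 9522 genes. Id1 and Id3 were lower, as were 3.30% of all genes, and Grem1 was higher, as were 4.56%. Id3 had 78.0 CPM with PBS (69.4 to 87.3) and 17.9 with IL-1β (14.5 to 21.7), giving a ratio of 0.229 (0.181 to 0.288). The control value was 11.9% of the stromal level. In those cells 6 of the 8 stromal markers gave 1.39% to 3.37% of their stromal level, and the other two, Fn1 and Sparc, gave 25.8% and 85.9%. Id1 had 16.0 and 5.05 CPM, a ratio of 0.315 (0.194 to 0.5004). These were 7.53% and 8.53% of its stromal levels, and Grem1 gave 2.34% and 2.61%. All were within the full range of the stromal markers in AT1-like cells (1.39% to 85.9% and 1.03% to 47.1%), with Sparc at both upper ends. Apart from Fn1 and Sparc the markers gave up to 3.37% in the control library, and 7 of 8 gave up to 4.45% with IL-1β. Id1 lay above these values and Grem1 among them. The part of free RNA in these calls was not tested. Id2 had 120.3 and 93.2 CPM, a ratio of 0.775 (0.682 to 0.880). In DATP-like cells 0 of 4 genes tested met the rule, where 13.4% of 4732 genes did, 8.14% higher and 5.26% lower. Id2 had 71.9 CPM with PBS (47.0 to 105) and 103 with IL-1β (86.5 to 121), below its AT2-lineage level in both, and Id1 had 6 and 50 UMIs, 16.6 and 36.1 CPM. The classes differ in their clusters between libraries, and the part of this in the AT1-like and DATP-like values was not tested.

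**Figure D4:**
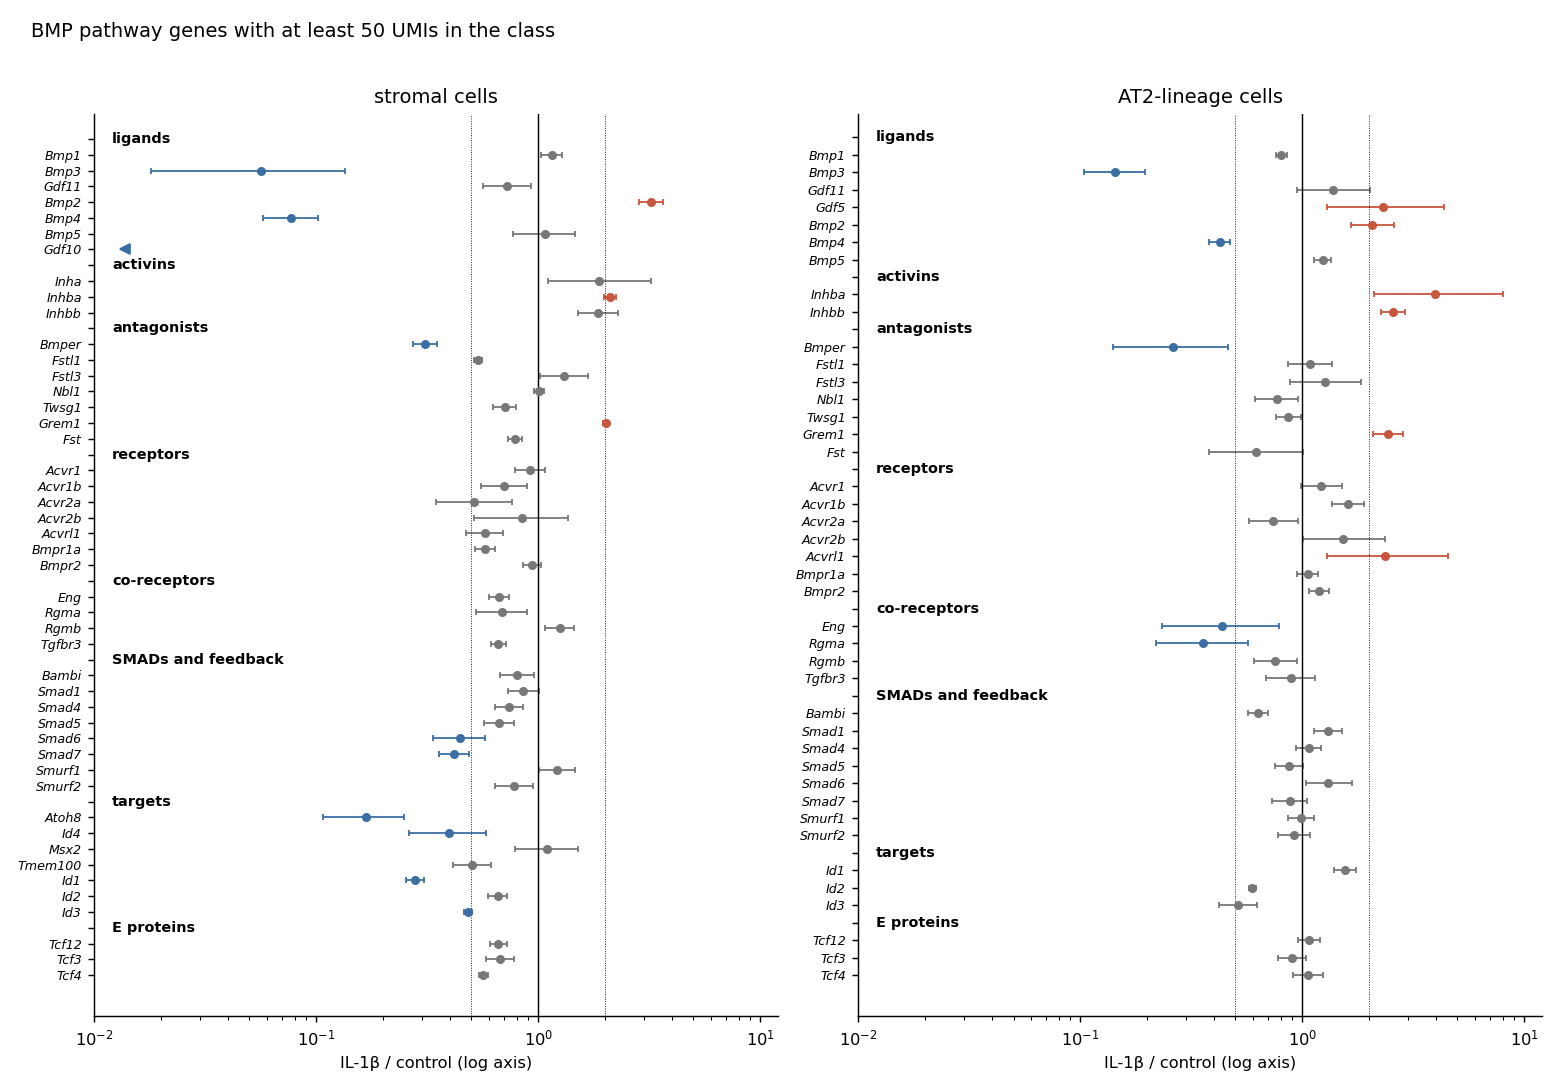
Ratio of IL-1β over control level (log axis) for the genes of 8 lists of the BMP pathway with at least 50 UMIs, in stromal and AT2-lineage cells, with 95% intervals; red and blue points met the rule, gray points did not, and the triangle marks the upper limit for Gdf10. The 4 called targets in stromal cells all lie on the lower side, and no receptor was called there.

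The pathway was also read from lists of ligands, activins, antagonists, receptors, co-receptors, SMADs with feedback genes, targets and E proteins. The lists include the 10 genes above, so their counts and medians partly repeat values already given. In stromal cells 4 of 7 targets tested were lower and 0 higher, where 11.7% of all genes were lower and 4.15% higher, with a median log2 ratio of -1.05 beside -0.335 for all genes. Besides Id1 and Id3 these were Atoh8, which went from 17.9 to 2.98 CPM (ratio 0.167, 0.108 to 0.249), and Id4, from 9.50 to 3.75 CPM (ratio 0.395, 0.262 to 0.581). Of the targets not called, beside Id2, Tmem100 had a ratio of 0.504 (0.413 to 0.611) and Msx2 of 1.09 (0.789 to 1.51). Of the 8 SMADs and feedback genes tested, 2 were lower and 0 higher, with a median log2 ratio of -0.397. The 2 were the inhibitory SMADs, which are feedback targets of the pathway. Smad7 went from 55.6 to 23.3 CPM (ratio 0.419, 0.358 to 0.489) and Smad6 from 18.4 to 8.16 CPM (ratio 0.444, 0.337 to 0.578). As log2 ratios these are -1.256 and -1.172, and neither would meet the rule with the shift of -0.335 taken out. Bambi, another gene of this list, was not called (ratio 0.799, 0.669 to 0.953). Smad7 is also a feedback gene of TGF-β signaling. Of the 7 genes of the ligand list tested, 3 were lower and 1 higher, beside the same 11.7% and 4.15%. This list holds Bmp1, which encodes a protease rather than a ligand and was not called (ratio 1.15, 1.03 to 1.28). The lower gene not yet named, Bmp3, went from 9.80 to 0.551 CPM (ratio 0.0562, 0.0180 to 0.135).

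Of 7 antagonists tested in stromal cells, 1 was higher, Grem1, and 1 lower, beside 4.15% and 11.7% of all genes. Bmper, a secreted BMP-binding protein, went from 117 to 36.3 CPM (ratio 0.309, 0.273 to 0.348). None of the 7 receptors tested in stromal cells was called. The type II receptor Bmpr2 had 82.5 and 77.3 CPM in control and IL-1β stromal cells and 43.3 and 51.5 CPM in AT2-lineage cells. The type I receptors Bmpr1a and Acvr1 had 97.6 and 56.0 CPM and 31.7 and 29.2 CPM in stromal cells, and 45.2 and 47.8 CPM and 11.2 and 13.7 CPM in AT2-lineage cells. The E protein genes Tcf3, Tcf4 and Tcf12, whose products the Id proteins bind, all missed the rule in both classes.

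In AT2-lineage cells 2 of 7 tested genes of the ligand list were higher and 2 lower, where 7.15% of all genes were higher and 3.88% lower. The protease gene Bmp1 was again among those tested and was not called. Bmp3 went from 20.01 to 2.87 CPM (ratio 0.144, 0.104 to 0.195) and so fell in both classes, and Gdf5 from 1.22 to 2.82 CPM (ratio 2.31, 1.29 to 4.34). Bmper and Eng (endoglin, a co-receptor) were called lower and Inhba higher, each at 0.917 to 3.74 CPM and 0.687% to 3.19% of the stromal level of the same library, where the stromal markers gave up to 7.66% with PBS and 3.91% with IL-1β. Rgma, another co-receptor, was called lower, with 4.51 and 1.61 CPM (ratio 0.357, 0.219 to 0.569). Acvrl1, a type I receptor best known from endothelium, was called higher, the only 1 of 7 receptors tested. It had 1.15 and 2.70 CPM (15 and 47 UMIs, ratio 2.36, 1.30 to 4.54). These were 3.97% and 16.3% of its stromal level, the control value within the range of the stromal markers. None of the 8 SMADs and feedback genes was called in AT2-lineage cells, and Smad6 and Smad7 had ratios of 1.31 and 0.878 there.

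The genes most like each of 9 members in level were found over 18 units, each a cluster within 1 library of at least 50 cells, among 9254 genes. Units of 1 library share their depth and free RNA, and the coefficients are descriptions. Bmp5 was most like Map7, Grhl2 and Rab25 (Pearson r of log2 level 0.974, 0.973 and 0.970), Id2 like Hdc, St3gal6 and Ogfrl1 (0.942, 0.934 and 0.932) and Id3 like Prrx2, Sod3 and Snai1 (0.982, 0.979 and 0.978). Grem1 was most like the chemokine genes Ccl7 and Ccl2 (0.986 and 0.985), Bmp2 like Pla2g7 (0.945), Fst like Ncs1 (0.973) and Gdf10 like Kctd12 (0.968). The best matches were lower for Bmp4 (Cnn2, 0.910) and Id1 (Zfp36l2, 0.933).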

How the data were processed

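The authors aligned and counted the reads of 2 droplet 3′ libraries with Cell Ranger on GRCm38 and deposited raw UMI counts. The submitters' processing notes also name mm9 and Scanpy 1.3.6. The deposited barcodes had at least 4605 UMIs in the control library (total 33965848) and 4975 in the IL-1β library (total 41220175), and carry none of the study's later cell cutoffs.

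Cells were kept if they had over 2000 UMIs and a gene number between 500 and 7000. The study's scrublet rule marked 3 of 5142 cells (0.0583%), so doublets remain. The 5139 cells were clustered with scanpy 1.11.5 and leidenalg 0.10.2 (50 components, 15 neighbors, resolution 1.0) without the genes reported or other BMP pathway genes, split into stroma and epithelium, clustered again and named by markers. AT2 and primed AT2 clusters were joined as AT2-lineage. A mixed cluster and 4 immune-like cells were set aside, and a cycling name needed a leading cycling marker; these choices were made after the clusters were seen.

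UMIs were summed per class and library. CPM intervals are exact Poisson intervals and ratio intervals exact binomial (Clopper-Pearson) intervals conditional on the sum, at 95%, from scipy 1.17.1. The calling script was tested on simulated data. All 10 members are described in every class, and of other pathway genes up to 8 called per class were named, ranked by the interval limit nearest 1, with receptors given by level. For likeness, members with at least 200 UMIs were compared with genes of at least 500 UMIs on log2(CPM + 10). Shares of cells are given after thinning to 4600 UMIs, with exact binomial intervals. Positions are those of GENCODE M21. Of the pathway lists, 1 gene was left out of all counts and is not reported here. The members, lists and rules were chosen with earlier results of these data known.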

Additional observations from a re-analysis of the deposited data

Results flagged for a closer look

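Of the 10 genes, 8 were tested in AT2-lineage cells. Among these, only Id1 had ratios on opposite sides of 1 in stromal and AT2-lineage cells with the interval excluding 1 in both. The share of all genes that do so was not computed. The median log2 ratio of all genes was -0.335 in stromal and 0.069 in AT2-lineage cells. For Id1 the ratio of IL-1β over control was 0.279 in stromal cells (2796 and 537 UMIs) and 1.55 in AT2-lineage cells (429 and 886 UMIs). It was below 1 in stromal cells and above 1 in AT2-lineage cells under all 21 alternative settings, although some of these left either class unchanged. The lowest AT2-lineage value, a log2 ratio of 0.364, came with the unnamed epithelial cells counted as AT2-lineage. The difference between the classes was not tested, since each class had 1 library per condition, and the AT2-lineage ratio did not reach the 2-fold rule.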

How the results depend on the processing

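Members were recomputed under 21 alternative settings, 14 planned and 7 added after seeing the data. Of the single values, 480 stayed within their counting interval, 53 moved beyond it and 1 of a called gene changed sign: stromal Bmp2 at -0.00031 on the log2 scale without the IL-1β cluster led by Mmp10 and Il11. A further 13 values of genes not called, counted among the 480 and 53, changed sign: stromal Bmp5 in 3 settings (down to -0.096 on the log2 scale) and Fst in 2 (up to 0.288), DATP-like Bmp4 in 4 (up to 0.125), Id2 in 2 (down to -0.839) and Id1 in 1 (-0.495), and AT1-like Id2 in 1 (0.431). When the libraries were clustered separately, 73 of the 74 cells of that cluster were named immune-like and stromal Bmp2 and Grem1 lost their calls. Stromal Bmp4, Gdf10 and Id1 were called lower in 21 of 21 settings, Id3 in 20 (lost with the median of gene ratios), Bmp2 higher in 19 and Grem1 in 15. The stromal class came out the same without doublet removal, with Louvain clustering, another random seed, pathway genes kept in clustering or unnamed cells counted as AT2-lineage. Settings that changed only stromal clusters likewise left AT2-lineage values as they were. A setting that leaves a class as it was does not check its calls. Scaling by the median of gene ratios moved the share of stromal calls that were higher from 26.1% to 47.8%. In DATP-like cells the count of members called, 0, became 1 (Grem1) without the filter and doublet removal, with the 5% highest doublet scores removed, at resolution 2.0 and with separate clustering, and 2 (Grem1, Id2) with pathway genes kept in clustering. In the same order, 462 genes were higher and 338 lower of 5913 tested, 450 and 461 of 6954, and 500 and 296 of 7134. The last 2 of these settings gave 573 and 206 of 7596, and 535 and 508 of 7074. In the main clustering DATP-like Grem1 was 1.07% (PBS) and 1.67% (IL-1β) of its stromal level, within the range of the stromal markers there. No control cell was named DATP-like without doublet removal, at resolution 0.5 or with Louvain clustering, so those settings gave no value. Other pathway genes called in AT2-lineage cells numbered 8, where 11.0% of 11045 genes were called. At a minimum of 200 UMIs, where fewer genes are tested, they numbered 2, and of all 8499 genes tested 404 were higher and 202 lower. The causes of the other changes were not tested. No paired analysis was possible because each condition has 1 library, and for the same reason none could be left out. Depth limits Nog, with 18 UMIs per library, and the 25 control DATP-like cells.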

Other observations

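The activin genes, whose products are TGF-β family ligands bound by follistatin and follistatin-like 3, were higher in the IL-1β library in several classes. Inhbb, the activin βB subunit, had 13.8 CPM in control DATP-like cells (5 UMIs) and 251 in IL-1β DATP-like cells (347 UMIs), a ratio of 18.1 (7.70 to 56.2) that rests on 25 control cells from another cluster. It had 24.8 and 63.7 CPM in AT2-lineage cells (ratio 2.57, 2.27 to 2.91) and 16.3 and 32.8 CPM in AT1-like cells (ratio 2.02, 1.51 to 2.73), each called higher, and 12.8 and 23.9 CPM in stromal cells, not called. In the IL-1β library the Inhbb level was thus highest in the DATP-like cells. Of all genes tested, 8.14% were called higher in DATP-like, 7.15% in AT2-lineage, 4.56% in AT1-like and 4.15% in stromal cells. The AT1-like cells, too, came from different clusters in the 2 libraries. Inhba, the βA subunit, was stromal, with 133 CPM in control and 280.1 in IL-1β stromal cells (ratio 2.10, 1.97 to 2.23).

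Among the antagonists, Fstl3 had 22.1 and 54.2 CPM in DATP-like cells (ratio 2.45, 1.18 to 5.88) and was called higher, as were 8.14% of 4732 genes. It had 8 control and 75 IL-1β UMIs there, and the control value rests on 25 cells from another cluster. Nbl1, a secreted antagonist of the DAN family, had 175 CPM in control and 51.2 in IL-1β AT1-like cells (ratio 0.292, 0.253 to 0.336) and was called lower there, while its stromal levels of 274 and 277 CPM were not. In the same cells Bambi, a pseudoreceptor that is itself a BMP target, went from 13.9 to 5.41 CPM (ratio 0.388, 0.240 to 0.617) and Bmp3 from 12.9 to 2.16 CPM (ratio 0.168, 0.0813 to 0.319). Rgma went from 12.4 to 4.51 CPM there (ratio 0.364, 0.215 to 0.602). All were called lower in AT1-like cells, as were 3.30% of 9522 genes. The AT1-like cells of each library came from a different cluster, and the part of this was not tested.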
